A study of Gallus gallus with 2 samples.

Results

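The genes described here encode the voltage-gated and related cation channels of the embryonic chicken heart: potassium channels (KCN symbols), voltage-gated calcium channels (CACN), voltage-gated sodium channels (SCN), the hyperpolarisation-activated pacemaker channels (HCN) and the TRPA, TRPC, TRPM and TRPV channels. They were picked by a pattern in the symbol, which matched 118 rows and 116 symbols of the 16737 genes in the deposited tables. By current type these were 65 potassium, 18 calcium, 11 sodium, 3 HCN and 19 TRP symbols. One of them, TRPC4AP, encodes a protein that binds a TRPC channel and is not itself a channel subunit. The further cardiac genes that had been listed for report (HCN4, KCNE1, KCNJ2, KCNJ4 and TRPM4 among them) were not matched by symbol and were not analysed here. The pattern distinguishes capitals, so the row spelled kcnma1, at 0.434 and 0.401 FPKM in the control and NO libraries, was not counted as a member.

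Fertilised brown leg horn eggs were kept at 37 °C for 24 h and then received 20 µl of fluid into the air sac, either phosphate-buffered saline (the control group) or spermine NONOate at 10 µM (the NO group). Spermine NONOate is a nitric oxide (NO) donor that leaves the polyamine spermine, and neither group received spermine alone, so the effects of the gas and of spermine cannot be told apart. Hearts were removed at 45 h, and the labels leave unclear whether this time runs from setting the eggs or from injecting them; 10 hearts were pooled into 1 library per group. With 1 library per group there was no replicate, no test and no p-value, and every interval below covers the estimation within a library and not the variation between pools.

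Voltage-gated channels open when the membrane potential changes and let sodium, calcium or potassium cross. In heart muscle, sodium current starts the action potential and spreads it from cell to cell, L-type calcium current sustains it and triggers contraction, and potassium currents end it and set the resting potential. T-type calcium current and the HCN current act near the resting potential and contribute to pacemaking, and both are known from the early embryonic heart, which begins to beat while it is still a tube. Pore-forming subunits carry the current, while auxiliary subunits change the trafficking and gating of a pore.

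Expression was given as FPKM, which scales the fragments of a gene by its transcript length and by library size. The width of the deposited interval yields the number of fragments behind a value if it reflects counting alone. The fragments given here are such implied numbers and not counts. For some genes they did not keep pace with FPKM: TNNT2, at 604 and 3189 FPKM, had 2057 and 2336 of them. These implied fragments summed to 18246200 in the control pool and 28768000 in the NO pool. In genes with few fragments, 1 fragment was worth 1.63 times as much FPKM in the control pool. Channel transcripts were scarce. Of the 116 genes, 45 averaged 1 FPKM or more and are called measured here, and 27 had a mean under 0.1 FPKM. The median measured channel gene was at 1.94 FPKM in the control pool and 2.04 FPKM in the NO pool, against 10.4 and 9.02 FPKM for all 10824 measured genes. Of the 45, 11 were under 1 FPKM in 1 library and passed through the other, so that 3 of the higher and 6 of the lower genes counted below entered because 1 library was high.

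The libraries also differed in their cell type markers. The 11 heart muscle markers were all measured in both libraries and summed to 2515 FPKM in the control pool and 16414 FPKM in the NO pool, with 10 of 11 at least 1.5-fold higher. Summed markers of neural tissue, neural crest, endoderm, somite and skeletal muscle, and epicardium were lower in the NO pool. The neural tissue markers summed to 58.7 and 14.8 FPKM (3 of 5 measured at least 1.5-fold lower and 1 higher), those of neural crest to 219 and 39.8 FPKM (5 of 6 lower) and those of endoderm to 431 and 47.4 FPKM (4 of 4 lower). The somite and skeletal muscle markers summed to 25.4 and 1.94 FPKM with 1 measured, TCF15, which was lower, and the epicardial markers to 11.7 and 3.71 FPKM with 3 of 4 lower and UPK3B listed at 0 in the NO pool. Endothelial markers summed to 62.6 and 117 FPKM (4 of 6 higher) and erythroid markers to 261 and 3400 FPKM (4 of 4 higher). In such pools, fewer cells of a type and less RNA per cell cannot be told apart. The part that these shifts play in any channel difference was not tested.

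Differences are given on 2 scales. The ratio of FPKM, NO over control, describes a single gene, and the log2 ratio of FPKM + 1 (the log2 difference), which understates the difference of a low gene, was used for counting. On the second scale, 8 of the 45 measured channel genes (17.8%) stood 1.5-fold or more above control in the NO pool, as did 9.59% of all measured genes, and 13 (28.9%) stood 1.5-fold or more below it, as did 22.4% of all measured genes. With libraries set to equal medians the split was 10 higher and 10 lower of 45, beside 12.4% and 18.1% of all measured genes. With each gene set against its chromosome size class it was 11 and 10, beside 12.8% and 17.0%. At 2-fold, 6 channel genes (13.3%) were higher beside 3.65% of all measured genes, and 3 (6.67%) were lower beside 10.3%. Nearest to the limit on this scale were TRPA1 at 1.39-fold, CACNG3 at 1.42-fold and KCNK15 at 1.45-fold outside it, and SCN3B at 1.505-fold, CACNA1D at 1.52-fold and KCNJ16 at 1.57-fold inside it. Nearest to the level filter were KCNG1 with a mean of 0.906 FPKM below it and KCNK15 with 1.03 FPKM above it. The median log2 difference was 0.03 for the channel genes and −0.11 for all measured genes. The deposited intervals of the libraries were apart for 31 of the 45 (68.9%), which is near the 70.9% of all measured genes, so intervals apart do not set a channel gene off. Overlapping intervals do not show equal levels either. For TRPC1, whose intervals overlapped, the log2 difference was 0.16 with an interval of 0.04 to 0.29. The genes at least 2-fold higher included CACNA1C, CACNA2D1, CACNB2, KCNH7 and KCNJ11, and the 3 at least 2-fold lower were CACNA1G, KCNC2 and KCNN3.

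**Figure D1:**
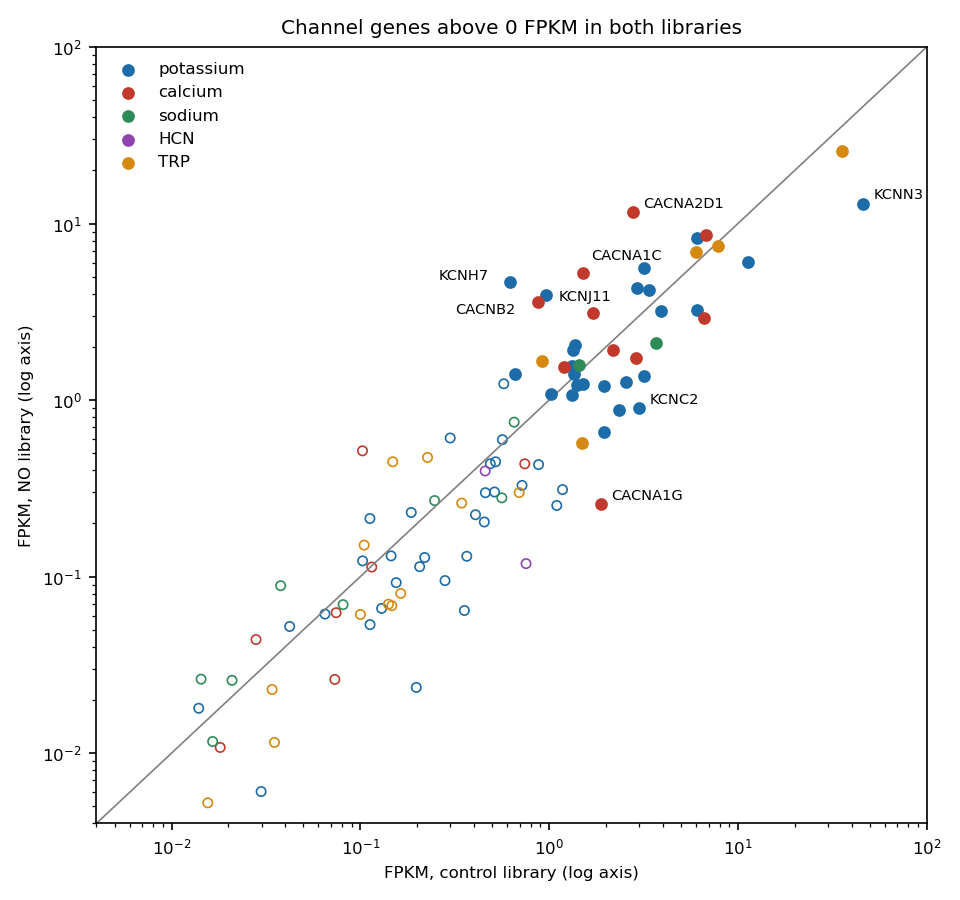
FPKM of each channel gene in the control pool (x axis) and the NO pool (y axis), both log axes, coloured by current type, with filled points for a mean of at least 1 FPKM and open points below it; the grey line marks equal values, and genes listed at 0 in a library or not reported here are not drawn. The 8 named genes differed by at least 2-fold on the FPKM + 1 scale, with 5 above the line and 3 below it.

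Among calcium channel genes, the L-type pore CACNA1C and the accessory subunits CACNA2D1 and CACNB2 were all higher in the NO pool, while the T-type pore CACNA1G and the accessory subunit CACNB1 were lower. Of 18 calcium channel genes 10 were measured, with 4 higher and 2 lower by 1.5-fold or more. Of all measured genes 9.59% were higher and 22.4% lower. The median log2 difference was 0.25 for the measured calcium channel genes and −0.11 for all measured genes.

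CACNA1C encodes the main L-type pore of heart muscle (ENSGALG00000013022, chromosome 1, 61319415 to 61742926 in galGal4). Its level in the control pool was 1.51 FPKM (95% interval 1.34 to 1.67), against 5.27 FPKM (5.03 to 5.51) in the NO pool, from 344 and 1968 fragments. The intervals lay far apart, with a ratio of 3.50 (3.12 to 3.92) and a log2 difference of 1.32 (1.22 to 1.43). CACNA1D, the second L-type pore, which opens at more negative potentials and serves pacemaking and the atrium in mammals, was at 1.71 FPKM (1.54 to 1.89) and 3.12 FPKM (2.93 to 3.31). Its ratio was 1.82 (1.62 to 2.04), smaller than that of CACNA1C, and with a log2 difference of 0.60 it stood just inside the 1.5-fold limit. CACNA1S, the L-type pore of skeletal muscle, stayed under the level filter, at 0.103 FPKM (21 fragments) and 0.516 FPKM (178 fragments), a ratio of 5.02 (3.20 to 7.90).

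The T-type pores were not alike in the size of their difference. CACNA1G (ENSGALG00000007623, chromosome 18, 10464250 to 10572776) was at 1.88 FPKM (1.71 to 2.04) in the control pool and 0.257 FPKM (0.211 to 0.303) in the NO pool, from 533 and 126 fragments. It was the channel gene with the most fragments among those at least 2-fold lower, and the FPKM of the control pool was 7.30 times that of the NO pool (6.01 to 8.87). On the log2 scale the difference was −1.19 (−1.29 to −1.10). CACNA1H, the other T-type pore with a sizeable level, was at 2.19 FPKM (1.98 to 2.41) and 1.92 FPKM (1.76 to 2.07). Its intervals overlapped, and its log2 difference was −0.13 (−0.25 to −0.008). CACNA1I, the third T-type pore, had 6 fragments in each library. CACNA1E, an R-type pore found mostly in neurons, was at 0.743 and 0.435 FPKM, under the filter.

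The accessory subunits come next. CACNA2D1, an extracellular alpha-2-delta subunit that brings pores to the membrane, was at 2.77 FPKM (2.48 to 3.06) in the control pool and 11.6 FPKM (10.97 to 12.3) in the NO pool, a ratio of 4.20 (3.74 to 4.73). CACNA2D2, its relative, was at 6.78 FPKM (6.36 to 7.21) and 8.58 FPKM (8.22 to 8.94), a log2 difference of 0.30 that did not reach 1.5-fold. The order of the pair was therefore reversed, with CACNA2D2 above CACNA2D1 in the control pool and below it in the NO pool, and the intervals of the pair did not overlap in either. CACNA2D1 had 360 and 1226 fragments, which did not keep pace with its FPKM. A control fragment was worth 1.63 times as much FPKM in genes with few fragments, so these fragments stand for a smaller difference. The ratio of CACNA2D1 and the reversal should be read with this limit. CACNA2D3 and CACNA2D4 were under 0.12 FPKM in both libraries.

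The cytoplasmic beta subunits showed the same kind of reversal. CACNB2, the main beta subunit of heart muscle in mammals, was at 0.876 FPKM (0.677 to 1.08) and 3.60 FPKM (3.28 to 3.93), a ratio of 4.11 (3.24 to 5.23). CACNB1, the beta subunit of skeletal muscle, was at 6.57 FPKM (5.69 to 7.46) and 2.92 FPKM (2.48 to 3.35), so that its control level was 2.25 times its NO level (1.85 to 2.75). CACNB1 led the beta subunits in the control pool and CACNB2 in the NO pool, although in the latter the intervals of the pair overlapped. CACNB4 was at 1.20 and 1.54 FPKM with overlapping intervals. Of the gamma family, CACNG3 was measured at 2.87 and 1.73 FPKM (40 and 46 fragments), a log2 difference of −0.51 short of the limit, and CACNG1, CACNG2 and CACNG4 were under 0.08 FPKM. CACNG1 and CACNG4 each stand on a pair of rows of chromosome 18, which were summed.

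**Figure D2:**
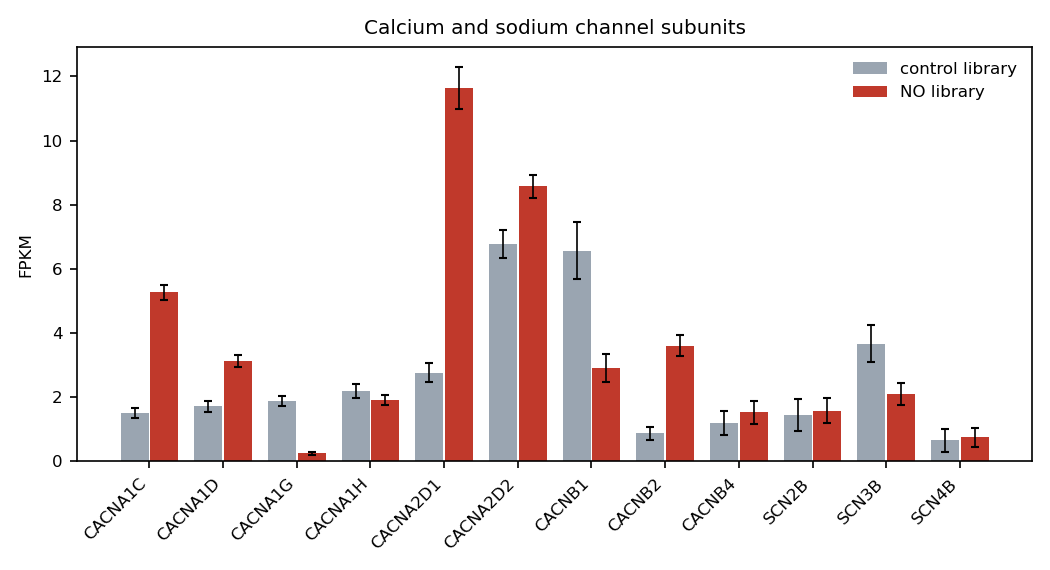
FPKM of 12 calcium and sodium channel subunits in the control pool (grey bars) and the NO pool (red bars), with error bars for the deposited 95% interval of each library. CACNA1C, CACNA2D1 and CACNB2 stand higher in the NO pool with intervals apart, and CACNA1G stands lower, at 1.88 FPKM in the control pool and 0.257 FPKM in the NO pool.

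Because a ratio between genes of 1 library does not depend on how the libraries are scaled to each other, the make-up of each family was also set side by side. The ratios were picked after the values were seen, and they are given as a description. The summed L-type pores CACNA1C and CACNA1D stood at 0.792 times (0.718 to 0.872) the summed T-type pores CACNA1G and CACNA1H in the control pool. In the NO pool they stood at 3.86 times (3.56 to 4.19). CACNA1C alone held 18.5% of the FPKM of the 7 matched CACNA1 genes in the control pool and 45.7% in the NO pool. CACNA1G held 23.0% and 2.23%. The ratio of CACNA2D1 to CACNA2D2 was 0.408 (0.362 to 0.460) and 1.36 (1.27 to 1.45), and that of CACNB2 to CACNB1 was 0.133 (0.103 to 0.173) and 1.24 (1.04 to 1.47). The fragments of CACNA2D1 did not keep pace with its FPKM, as given above. In the same libraries the heart muscle markers summed to 2515 and 16414 FPKM, and whether these ratios follow the share of muscle cells was not tested.

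Among the pores of sodium channels, which carry the fast upstroke of the action potential, SCN8A and SCN9A are known mainly from neurons. SCN8A was at 0.561 FPKM (0.451 to 0.672) and 0.279 FPKM (0.218 to 0.341), with intervals apart, and SCN9A at 0.247 and 0.270 FPKM, with overlapping intervals. SCN2A, SCN3A, SCN4A, SCN10A and SCN11A were under 0.1 FPKM in both libraries.

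The beta subunits anchor sodium channels and adjust their gating. SCN3B was at 3.67 FPKM (3.10 to 4.24) and 2.10 FPKM (1.76 to 2.44), a log2 difference of −0.59 that lies just inside the 1.5-fold limit and left it under every rescaling tried. SCN2B was at 1.44 and 1.58 FPKM and SCN4B at 0.653 and 0.749 FPKM, each with overlapping intervals. SCN3B was the most abundant of the 3 in both libraries, although its interval overlapped that of SCN2B in the NO pool.

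HCN2 and HCN3 encode subunits of the pacemaker channel, and both were under a mean of 1 FPKM. HCN2 was at 0.755 FPKM (0.528 to 0.982) and 0.118 FPKM (0.0527 to 0.184), from 44 and 13 fragments, with intervals apart and the NO pool lower. HCN3 was at 0.458 and 0.397 FPKM with overlapping intervals, on an unplaced scaffold.

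Potassium channel genes were the most numerous. Of 65 genes 26 were measured, with 3 higher by 1.5-fold or more (KCNH7, KCNJ11 and KCNH2) and 9 lower, where all measured genes were also more often lower (22.4%) than higher (9.59%); their median log2 difference was −0.14. Among the 20 measured pores 3 were higher and 7 lower. The 5 measured auxiliary genes held 0 higher and 2 lower, and 1 silent subunit was measured and did not reach the limit.

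**Figure D3:**
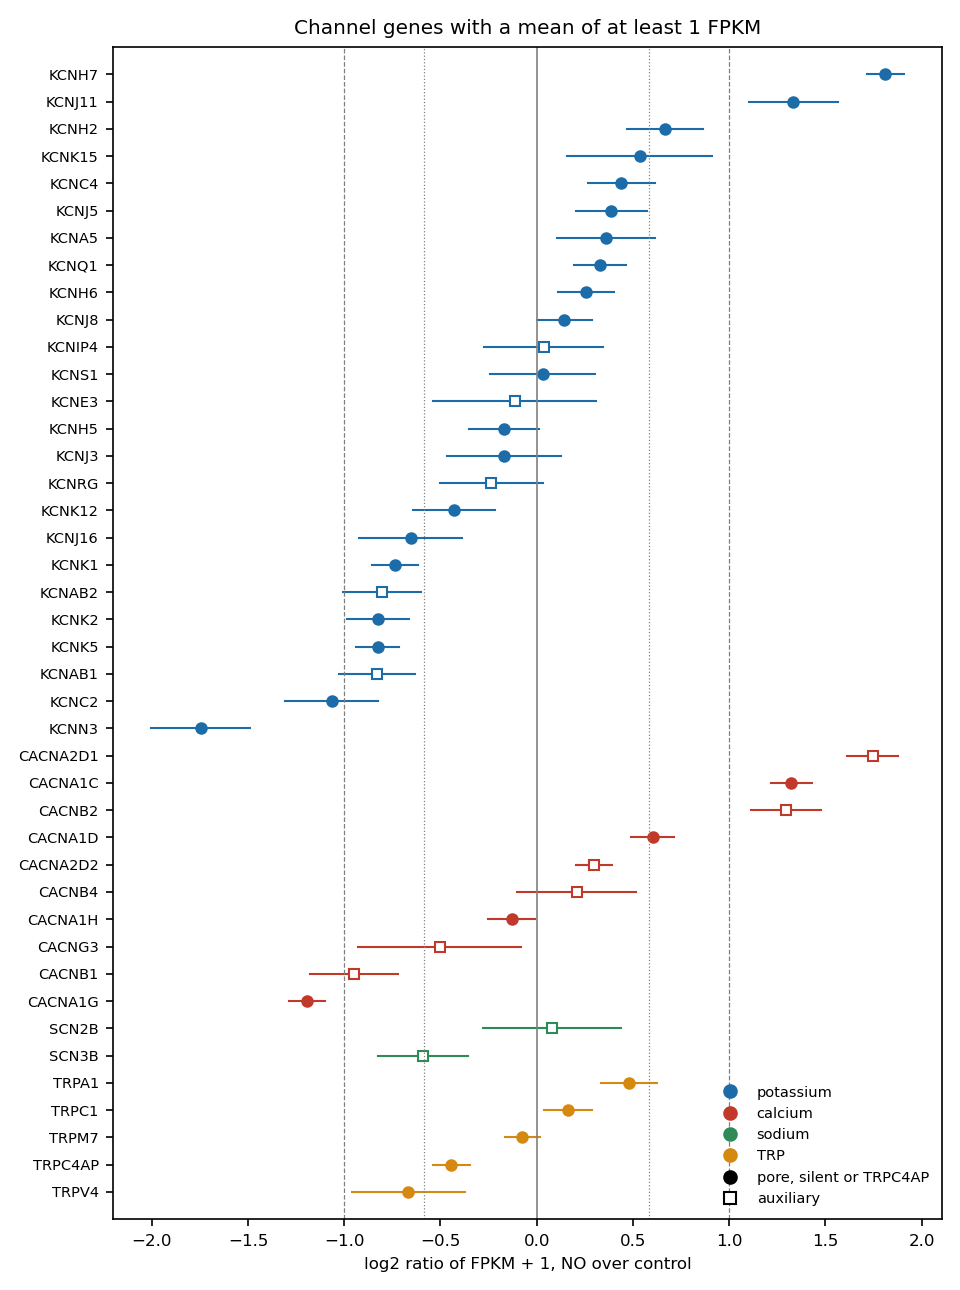
Log2 ratio of FPKM + 1, NO over control, for the measured channel genes reported here, grouped by current type and ordered within each, with bars for the interval that combines both deposited 95% intervals; filled circles are pores, silent subunits or TRPC4AP, open squares are auxiliary subunits, dotted lines mark 1.5-fold and dashed lines 2-fold. The potassium channel genes run from 1.81 for KCNH7 to −1.75 for KCNN3, and the TRP genes stay between 0.48 and −0.67.

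The ether-a-go-go related genes held the widest difference upward. KCNH7, a pore of this family known mainly from neurons in mammals (ENSGALG00000011082, chromosome 7, 20330959 to 20538685), was at 0.620 FPKM (0.525 to 0.714) in the control pool and 4.69 FPKM (4.48 to 4.90) in the NO pool, from 172 and 1933 fragments. Its ratio of 7.57 (6.48 to 8.85) was the highest of the 45 measured channel genes. KCNH2, the pore of the rapid delayed rectifier that helps to end the cardiac action potential, was at 3.17 FPKM (2.67 to 3.67) and 5.61 FPKM (5.13 to 6.09), a ratio of 1.77 (1.49 to 2.11). KCNH6, the third gene of this subfamily, was at 3.37 and 4.22 FPKM, with a log2 difference of 0.26 that fell short of 1.5-fold. KCNH7 was the lowest of the 3 in the control pool. In the NO pool it stood between KCNH6 and KCNH2, although its interval overlapped that of KCNH6. The share of KCNH7 among the matched KCNH genes was 6.93% in the control pool and 29.5% in the NO pool. KCNH5, an ether-a-go-go pore, was at 1.505 and 1.23 FPKM, and KCNH1, KCNH4 and KCNH8 were under 0.2 FPKM. Neural tissue markers were lower as a sum, at 58.7 and 14.8 FPKM. Among them SOX2 was at 23.4 and 3.48 FPKM, EN2 at 22.7 and 0.0844 FPKM and HES5 at 5.10 and 0.264 FPKM. The others did not share a direction, with SNAP25, a synaptic gene, at 0.755 and 4.42 FPKM, ELAVL4 at 5.37 and 6.19 FPKM and STMN2 at 1.30 and 0.344 FPKM. Whether KCNH7 goes with any of these was not tested.

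Inward rectifiers differed by member. KCNJ11, the pore of the ATP-sensitive potassium channel of ventricular muscle in mammals (ENSGALG00000020505, chromosome 5, 11247848 to 11250065), was at 0.960 FPKM (0.689 to 1.23) and 3.94 FPKM (3.52 to 4.36), a ratio of 4.11 (3.06 to 5.52). KCNJ8, the pore of the same channel type in vascular muscle, was at 1.32 and 1.57 FPKM, and its intervals overlapped. The ratio of KCNJ11 to KCNJ8 was thus 0.726 (0.533 to 0.989) in the control pool and 2.52 (2.17 to 2.91) in the NO pool. The sulphonylurea receptors that complete these channels were at 1.17 and 1.56 FPKM for ABCC8 and at 2.60 and 4.17 FPKM for ABCC9, neither reaching 1.5-fold on the FPKM + 1 scale. KCNJ5, a subunit of the channel that acetylcholine opens through G proteins, was the most abundant of the 9 matched inward rectifiers in both libraries, at 6.05 and 8.23 FPKM. Its partner KCNJ3 was at 1.32 and 1.06 FPKM, and neither reached the limit. KCNJ16, a subunit that pairs with other inward rectifiers in kidney and brain, was at 2.55 and 1.26 FPKM, with a log2 difference of −0.65 (−0.92 to −0.39). KCNJ15 was under the filter at 1.18 and 0.311 FPKM. KCNJ13 had 10 fragments in the control pool and was listed at 0 in the NO pool, as were KCNJ1 and KCNJ6, with 1 fragment each in the control pool.

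Two-pore-domain channels, which carry background potassium current, held 3 lower genes and none higher. Of 12 KCNK genes 5 were measured, 3 of them lower by 1.5-fold or more, beside 22.4% lower and 9.59% higher among all measured genes. KCNK1 was at 6.05 FPKM (5.63 to 6.46) and 3.23 FPKM (2.98 to 3.49), and it was the most abundant of them in both libraries. KCNK5, an alkaline-sensitive member, was at 3.19 FPKM (2.95 to 3.42) and 1.36 FPKM (1.23 to 1.49), and KCNK2, a member that responds to stretch, was at 1.94 FPKM (1.69 to 2.20) and 0.662 FPKM (0.541 to 0.783). The log2 differences of these 3 genes were alike, at −0.74, −0.83 and −0.82. KCNK12 was at 1.961 and 1.20 FPKM and KCNK15 at 0.658 and 1.40 FPKM, in opposite directions and both short of the limit. KCNK3, an acid-sensitive member, had 9 and 3 fragments, and the other 6 (KCNK9, KCNK10, KCNK13, KCNK16, KCNK17 and KCNK18) were under 0.4 FPKM, with KCNK17 listed at 0 in both libraries.

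Among voltage-gated potassium channels, KCNC2, a fast pore typical of neurons, was at 2.98 FPKM (2.48 to 3.49) and 0.903 FPKM (0.686 to 1.12), so that the control level was 3.31 times the NO level (2.48 to 4.41). Its relative KCNC4 was at 2.903 and 4.30 FPKM, and the pair, equal within their intervals in the control pool, stood at a ratio of 4.76 (3.71 to 6.11) of KCNC4 to KCNC2 in the NO pool. KCNQ1, the pore of the slow delayed rectifier of the heart, was at 1.33 FPKM (1.16 to 1.51) and 1.93 FPKM (1.75 to 2.11), with intervals apart but a log2 difference of 0.33 that missed 1.5-fold. KCNQ5 was under the filter at 0.299 and 0.610 FPKM, with intervals apart, and KCNQ3 was under 0.15 FPKM.

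KCNA5, the pore of the ultrarapid delayed rectifier of the mammalian atrium, was at 1.37 and 2.04 FPKM, with a log2 difference of 0.36. Genes of the transient outward current were scarce, with KCND3 at 0.521 and 0.447 FPKM, KCND2 at 0.112 and 0.213 FPKM and their auxiliary subunit KCNIP2 at 0.460 and 0.299 FPKM. No difference in KCND2, KCND3 or KCNIP2 could be detected at this depth, since their intervals overlapped. KCNA1, KCNA2, KCNA4, KCNB2 and KCNC1 were under 0.5 FPKM in both libraries.

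KCNN3, a calcium-activated pore of small conductance, had the highest FPKM of all channel genes in the control pool, at 45.9 FPKM (40.8 to 51.0), and was at 12.98 FPKM (10.9 to 15.0) in the NO pool. The log2 difference was −1.75 (−2.004 to −1.49), from 326 and 160 fragments. Its model (ENSGALG00000026314) spans only 554 bases of the unplaced scaffold JH375632.1, from 3770 to 4323, so its level rests on a short piece of a gene and should be read with care beside those of whole genes. Measured genes outside the numbered and Z chromosomes and the mitochondrial genome had a median log2 difference of −0.67, and set against that median KCNN3 was at −1.08. Of the other calcium- or sodium-activated genes, KCNMB4, an auxiliary subunit of the large-conductance channel, was at 1.10 and 0.253 FPKM and KCNT2 was at 0.514 and 0.301 FPKM. KCNU1 had 3 and 1 fragments.

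Auxiliary potassium channel genes were led by the cytoplasmic beta subunits, which bind the voltage-gated pores of the KCNA type. KCNAB2 was at 11.4 FPKM (10.1 to 12.6) and 6.08 FPKM (5.36 to 6.79), and KCNAB1 at 2.33 FPKM (1.97 to 2.69) and 0.875 FPKM (0.707 to 1.04). Both were at least 1.5-fold lower, with log2 differences of −0.80 and −0.83. KCNRG, counted as auxiliary by its symbol alone, was at 3.93 and 3.19 FPKM. KCNE3 was at 1.41 and 1.22 FPKM and KCNIP4 at 1.03 and 1.08 FPKM. Each of these genes had overlapping intervals. KCNIP1 was under the filter at 0.719 FPKM (0.533 to 0.904) and 0.329 FPKM (0.228 to 0.430), with intervals apart. KCNE4 was at 0.566 and 0.596 FPKM with overlapping intervals, and KCNE2 was listed at 0 in the control pool and had 3 fragments in the NO pool.

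Silent subunits form no channel alone and modify other voltage-gated pores. KCNS1 was at 1.35 and 1.40 FPKM with overlapping intervals, the 1 measured gene of 8. KCNG1 was at 0.575 FPKM (0.362 to 0.789) and 1.24 FPKM (0.986 to 1.49), just under the filter with intervals apart. KCNV2 was listed at 0 in the control pool and had 14 fragments, 0.194 FPKM, in the NO pool. KCNF1, KCNG3, KCNS2, KCNS3 and KCNV1 were under 0.9 FPKM in both libraries, with overlapping intervals.

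**Figure D4:**
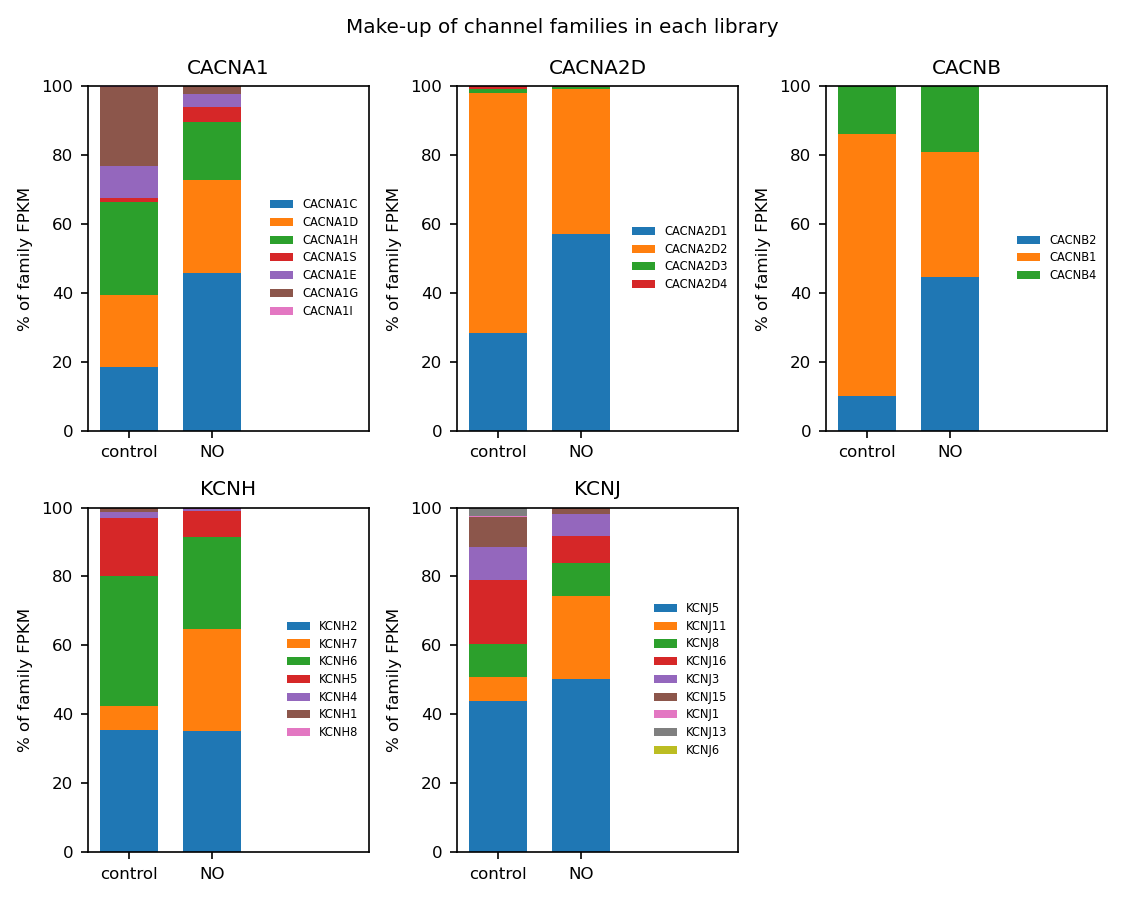
Share of the summed FPKM of the matched genes of a family, in percent, held by each gene in the control pool (left bar) and the NO pool (right bar) for 5 channel families. CACNA1C holds 18.5% and 45.7% of the CACNA1 family and KCNH7 6.93% and 29.5% of the KCNH family.

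Most measured TRP genes differed by less than 1.5-fold. These channels respond to lipids, stretch, temperature or chemical irritants, and several are linked to calcium and magnesium entry in many cell types. Of 19 genes 6 were measured, with 0 higher and 1 lower by 1.5-fold or more, beside 9.59% higher and 22.4% lower among all measured genes. TRPM7, a magnesium and calcium channel fused to a kinase, had the highest FPKM of the TRP channels, at 7.87 FPKM (7.45 to 8.28) and 7.42 FPKM (7.06 to 7.77), with overlapping intervals. TRPC1 was next at 6.03 FPKM (5.55 to 6.52) and 6.86 FPKM (6.43 to 7.29), again with overlapping intervals, and in the NO pool its interval overlapped that of TRPM7.

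TRPA1, a sensor of irritants, was at 0.915 FPKM (0.763 to 1.07) and 1.67 FPKM (1.497 to 1.84), with intervals apart and a log2 difference of 0.48. TRPV4, a channel gated by cell swelling and stretch, was at 1.50006 FPKM (1.08 to 1.92) and 0.575 FPKM (0.384 to 0.765), a log2 difference of −0.67. Like KCNN3, TRPV4 lies on an unplaced scaffold, and set against the median of such genes its difference was near 0. TRPC4AP, which encodes no channel subunit, was at 35.5 and 25.8 FPKM, with a log2 difference of −0.44. Of the 13 TRP genes under the filter, TRPV2 was at 0.227 and 0.473 FPKM, TRPC5 at 0.149 and 0.447 FPKM and TRPM2 at 0.694 and 0.299 FPKM, each with intervals apart. TRPC4, TRPC6, TRPC7, TRPM1, TRPM3, TRPM5, TRPM6, TRPM8, TRPV1 and TRPV3 were at or below 0.344 FPKM, with overlapping intervals.

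In all, 71 channel genes were under the filter. Of these 27 had fewer than 10 fragments in both libraries, too few to compare, and 18 had at least 50 fragments in 1 of them. Among the 18 the ratio of FPKM was at least 1.5 for 6 genes and at least 1.5 in the other direction for 8. On the FPKM + 1 scale used for the other counts, 1 of the 18 was 1.5-fold or more higher and 3 were lower. The matching shares of all genes under the filter were not computed, so these counts only describe the members.

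Channel genes that neighbour each other on a chromosome were also compared. There were 18 neighbouring pairs with a gap of at most 200 kb, and in 0 of them were both genes at least 1.5-fold different in the same direction, although only 1 pair had both genes measured. CACNA1C lies 89.9 kb from CACNA2D4, which was at 0.0745 and 0.0624 FPKM, and KCNJ5 lies 5.95 kb from KCNJ1. In each of these pairs 1 channel gene held nearly all the fragments of the pair.

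Genes that work with these channels were read from lists written with earlier results of these data known, and their counts stand beside 9.59% higher and 22.4% lower among all measured genes. Of 39 measured genes for other ion channels, pumps and exchangers, 8 were higher and 8 lower by 1.5-fold or more, and the median log2 difference was −0.05. RYR2, the calcium release channel of the sarcoplasmic reticulum, was at 1.956 and 8.74 FPKM and NCX1, the sodium-calcium exchanger, at 32.8 and 146 FPKM. STIM1, the sensor of store-operated calcium entry, was at 17.7 and 6.20 FPKM. Of 32 measured partners and modulators of channels, 10 were higher and 6 lower, with a median of 0.29. RRAD, a small GTPase that inhibits L-type calcium current, was at 3.78 and 27.996 FPKM, and ADRB1, the beta-adrenergic receptor that raises it, was at 4.43 and 13.7 FPKM. From the same list, REM1 was higher, at 3.29 and 5.95 FPKM, and GEM lower, at 3.14 and 1.17 FPKM. FGF13 and FGF14, intracellular factors that bind sodium channels, were at 2.75 and 12.0 FPKM and at 0.926 and 2.82 FPKM, whereas FGF12 of the same group was at 15.5 and 6.76 FPKM. SPTBN4, a spectrin that helps to cluster sodium channels in neurons, was at 8.93 and 0.817 FPKM.

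Neuronal genes gave no single direction. Of 9 measured neuronal excitability genes, 2 were at least 1.5-fold higher (SNAP25 and NEFM) and 3 lower (TUBB3, GAP43 and SYT1), with a median of 0.17. Of the 19 listed symbols 12 matched, and these summed to 211 and 124 FPKM, with TUBB3 at 142 and 36.1 FPKM. The matched genes under the filter were CHGA at 1.55 and 0.264 FPKM, STMN2 at 1.30 and 0.344 FPKM and INA at 0.490 and 0.167 FPKM. Of 24 measured genes of cardiac conduction and chambers, 13 were higher and 4 lower (all measured genes 9.59% and 22.4%), with a median of 0.74 beside −0.11 for all measured genes. Heart muscle markers were also higher, and their part in these counts was not tested. The list holds connexins, NPPB and the Popeye genes beside transcription factors. NPPB, POPDC2, POPDC3 and BVES were all higher. Among the transcription factors TBX5, TBX20, SHOX2, IRX4, GATA4 and MEF2C were higher, TBX3, HAND1 and NR2F2 lower, and the others short of 1.5-fold. SHOX2, a factor of the sinus node, was at 0.155 and 3.87 FPKM, from 2 and 86 fragments. ISL1 was at 7.86 and 9.44 FPKM and TBX18 at 1.29 and 1.23 FPKM, neither reaching 1.5-fold. GJA5, a connexin of the atrium and the conduction system, was at 9.36 and 53.8 FPKM. Of the other listed connexins, GJA1 was lower, at 62.2 and 39.7 FPKM, and GJC1 and GJD2 were higher. TBX3, a factor that represses chamber genes in the node, was at 24.9 and 12.5 FPKM.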

How the data were processed

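The deposited values are FPKM from Cufflinks 2.2.1 with their 95% intervals, made from STAR 2.4.2a alignments (galGal4, Ensembl release 81), per the series design text; the strand setting was not given in the sources used here. The authors' FPKM carry no recorded scaling between libraries. Rows of both files (17108, all quantified without error) were joined by Ensembl identifier and summed by symbol. Starts in the files count from 0, since 6 of 7 single-exon channel genes then span a multiple of 3 bases, and are printed counted from 1. The interval reaches 2 SD on each side, and dividing FPKM by that SD and squaring gave the implied fragments, which lay within 0.02 of a whole number for 92.0% (control) and 91.8% (NO) of genes under 5 fragments. Intervals of ratios combine both libraries at 95%. Genes were called at 1.5-fold on FPKM + 1 with a mean of at least 1 FPKM. Named genes were 34 of 41 fixed symbols that matched, members at least 2-fold different and the 2 highest of each current type. Other members are given by level, and some of them also with a ratio or a log2 difference. Members and lists were chosen with earlier results of these data known. The steps that make the calls were run on simulated libraries with known fold changes. Those libraries held counting noise and no variation between pools, so they cannot show whether a call would hold in a second pool. Python 3.11.15, pandas 2.3.3 and NumPy 2.4.6 were used. Alternatives concerned the pseudocount, the filter, the scaling, the threshold and the summing of rows. A few members enter the counts but are not reported here.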

Additional observations from a re-analysis of the deposited data

How the results depend on the processing

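No paired analysis was possible because each group is 1 library. The 8 higher and 13 lower channel genes became 5 and 1 with a pseudocount of 5 FPKM (all measured genes 5.36% and 13.2%) and 1 and 2 with a mean of at least 5 FPKM, where 8 channel genes remained (all genes 9.76% and 21.3%); 3 genes were lower at a 2-fold threshold. The median log2 difference of the channel genes was 0.14 when set against the median of all measured genes. Under trimmed mean scaling 9 were higher and 11 lower (all measured genes 12.9% and 18.0%). With each gene set against its chromosome size class, an alternative chosen after seeing the data, the counts were 11 and 10. Of all measured genes 12.8% were then higher and 17.0% lower. The higher members were 52.4% of those called, against 38.1% as deposited. With median scaling the counts were 10 and 10 (all measured genes 12.4% and 18.1%). Over the 5 rescalings, 10 of the 13 lower genes kept their call. KCNJ16, SCN3B and TRPV4 did not, and TRPV4 was at 0.0002 against its chromosome class. All 8 higher genes kept theirs, but every rescaling raised the NO pool relative to control for the channel genes. A higher call could therefore not be lost, and its being kept shows nothing. Genes of microchromosomes had a median log2 difference of −0.22, those of macrochromosomes −0.03. Depth limits the genes with few fragments, and no alternative stands in for a second pool.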
